A study of Homo sapiens with 4 samples.

Results

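The MYC, MAX and MXD network was examined through 10 genes, MYC, MAX, MXD1, MXD3, MXD4, MXI1, MNT, MGA, MLX and MLXIP, which were taken by their symbol from the deposited gene table. All 10 were among its 13957 genes. The table comes from RNA sequencing of MDA-MB-231 Fluc cells, a human triple-negative breast cancer cell line with an inserted luciferase gene. Of the 4 samples, 2 were treated with 50 μM cordycepin, which is 3′ deoxyadenosine, and 2 with the vehicle DMSO, each for 2 h, and all 4 came from the same line. The table gives 1 mean level per gene, as log2 CPM (read counts scaled by library size), and no value per library, so each level below mixes treated and vehicle cells and has no SD. The columns of the authors' own comparison between cordycepin and DMSO were not used, and no difference between the treatments is given here. A gene whose mRNA differed between the treatments would have a mean that belongs to neither of them.

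The proteins of this network are basic helix-loop-helix leucine zipper factors that bind E-box sequences in DNA as pairs. MYC pairs with MAX to activate genes of growth and ribosome production, whereas MXD1, MXD3, MXD4, MXI1 and MNT pair with MAX to repress them, mostly through the SIN3 corepressor. MGA is a large MAX partner that works in a Polycomb complex with E2F6. MLX is a MAX-like protein that pairs with MLXIP (also called MondoA), a sensor of glucose-derived sugar phosphates, and with some of the MXD proteins. In many cell types MYC is high during proliferation and the MXD proteins rise as cells differentiate, and the mRNA and protein of MYC are both short-lived.

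The motif bound best by these pairs, CACGTG, was looked up in the promoters of the members, because several of them are E-box-binding factors that could act on genes of their own network. RefSeq promoter windows of 300 bases (250 before and 50 after the transcription start, build GRCh38.p14) were found for 9 members, 14 windows in all. MYC was not among them. Of these 9 members, 3 held the motif, which reads the same on both strands. They are shown 5′ to 3′ on the strand of the gene, with the motif in capitals and up to 20 bases on either side. The MLX sequence is at chr17:42567030-42567075 on the plus strand, the MNT sequence at chr17:2401228-2401273 on the minus strand and the MXD4 sequence at chr4:2262322-2262359 on the minus strand.
MLX: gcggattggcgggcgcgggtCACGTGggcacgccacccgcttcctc
MNT: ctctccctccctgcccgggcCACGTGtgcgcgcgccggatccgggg
MXD4: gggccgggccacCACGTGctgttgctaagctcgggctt

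The motif began 50 bases before the start in MLX, 193 before it in MNT and 238 before it in MXD4. The 3 genes are 33.3% of the members with a window, compared with 12.5% of the 9764 genes of the table that have a window and 8.77% of all 27305 genes with a window. With so few members the share rests on single genes, and it was not tested. Any E-box, CANNTG, which includes the first motif, was found in 7 of the 9 members (77.8%) in 66.5% of genes of the table with a window and in 73.1% of all genes with one. Members have up to 3 windows each, and counted by window the order turns for CANNTG, with 57.1% of the 14 windows of members, 60.7% of those of genes of the table and 68.7% of all windows. For CACGTG the shares by window were 21.4%, 9.22% and 7.26%. MAX and MLXIP were the members without either motif in their windows. A match describes these letters only, and binding was not measured in these samples.

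**Figure D1:**
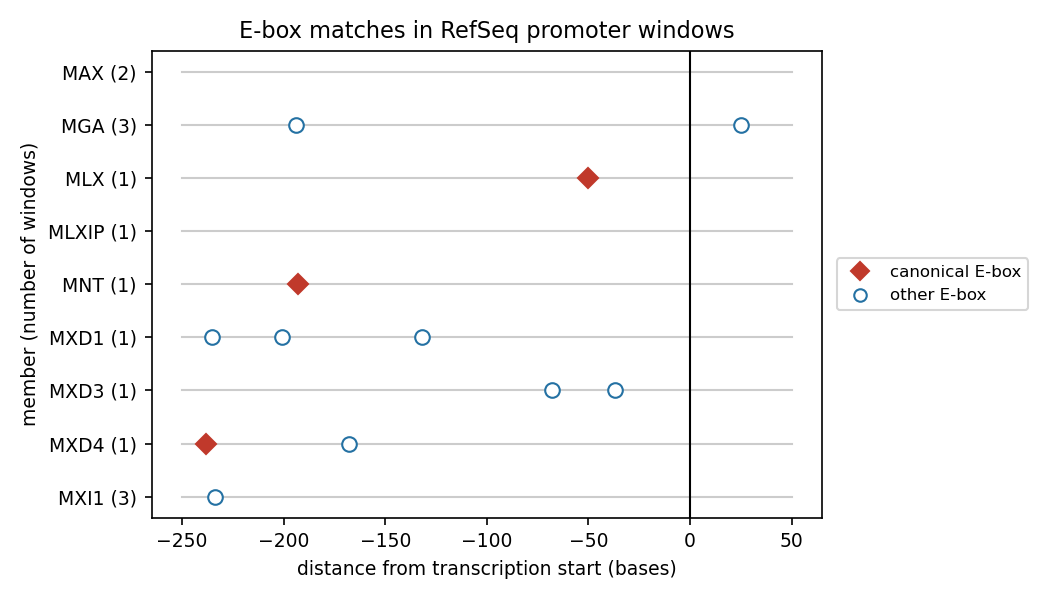
Position of E-box matches in the promoter windows of the 9 members with one, with the distance of the first base of the match from the transcription start in bases on the x axis and the number of windows of each member in brackets. Diamonds mark CACGTG, at -50 in MLX, -193 in MNT and -238 in MXD4, and open circles mark other CANNTG matches; windows of one gene are drawn on one line.

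The levels of the members in these cells were then compared with each other. CPM values grow with the length of a gene, so each was divided by the deposited gene length in kb. On this scale, log2 CPM per kb, the median of all 13957 genes was 2.43. MYC was the highest of the network with this length and MXD1 the lowest, and the levels of the 2 genes lay 25.6-fold apart in CPM per kb. MXD1 was the lowest with every length tried, but the first place was not fixed. MLXIP, at 3.62, passed MYC, at 3.56, with the GENCODE exon union as length, and it was also above MYC before division by length. With the length of the canonical transcript MXD3 was the highest and MYC the fourth, and the highest and lowest members lay 44.8-fold apart. The CPM of the whole gene was kept in that case, so any reads from outside the canonical transcript raise the level. MYC, MLXIP, MLX, MAX and MXD3 were above the median of all genes, and MXD4, MGA, MXI1, MNT and MXD1 were below it. The 5 of 10 members above it are the same share as over all genes, 50.0%. The members had a median of 2.47, 0.04 above that of all genes.

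**Figure D2:**
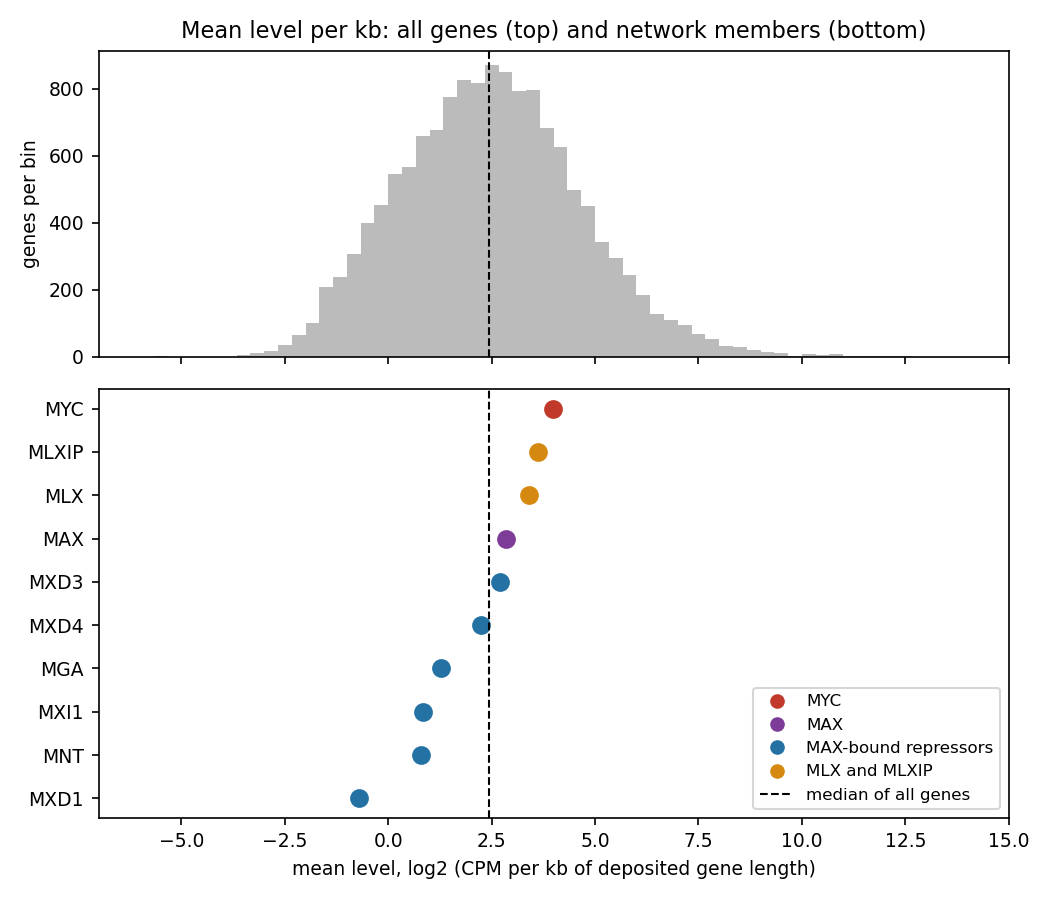
Mean level over the 4 libraries as log2 CPM per kb of deposited gene length, with the number of all 13957 genes per bin in the upper panel and 1 point per member, coloured by role, in the lower panel. The dashed line is the median of all genes, 2.43, and 5 of the 6 MAX-bound repressors lie to the left of it.

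MYC, the activator that pairs with MAX (chromosome 8, 127735434 to 127742951, plus strand, GRCh38), had a mean level of 6.17 as log2 CPM and 3.98 as log2 CPM per kb. This is above 76.4% of all genes. With the other lengths, backgrounds and the pseudocount tried, it lay between percentile 69.0 and percentile 77.0. Its deposited length is 4584 bases, and the canonical transcript, of 3721 bases, has 3 exons and is 63.4% untranslated. The other genes of the MYC family, MYCN and MYCL, had no value under these symbols and were not analysed here.

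MAX (chromosome 14, 65006174 to 65102695, minus strand), the common partner, had a mean level of 5.49 as log2 CPM and 2.84 as log2 CPM per kb, above 57.6% of genes. It took the fourth place in the order, behind MYC, MLXIP and MLX. Its deposited length of 6257 bases joins the exons of 19 annotated transcripts and is 3.11 times that of the canonical transcript, at 2010 bases. With the canonical length MAX had a level of 4.48, above 74.0% of genes, and was higher than MYC, at 4.28. Which of the pair had more transcripts thus depended on the length used, as MYC was at 2.19 times the level of MAX in CPM per kb with the deposited lengths and at 0.868 times with the canonical ones.

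The 6 repressors that pair with MAX covered a wide range. MXD3 (chromosome 5, 177301461 to 177312757), a repressor linked to dividing cells, was the highest, at 2.71 as log2 CPM per kb, above 55.1% of genes. MXD4 (chromosome 4, 2247432 to 2262109) followed at 2.24, above 46.5% of genes. MGA (chromosome 15, 41621224 to 41773081) was at 1.29, above 30.0% of genes. The mRNA of MGA is the longest of the network, with 24 exons and a coding sequence of 9342 bases in its canonical transcript. It thus had more reads than MXD3 and MXD4, at a mean log2 CPM of 5.43 against 5.07 and 5.02, but a lower level per kb.

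MXI1, also known as MXD2, (chromosome 10, 110207605 to 110287365) was at 0.85 as log2 CPM per kb, and MNT (chromosome 17, 2384073 to 2401104), the repressor found in most cell types, at 0.79. They differed by 0.064 on the log2 scale, the smallest step between neighbours in the order. MXD1 (chromosome 2, 69897688 to 69942945), whose protein rises in differentiating cells, was at -0.70. Only 6.83% of all genes with a value were lower. The step from MNT down to MXD1, 1.49 on the log2 scale, was the largest in the order. As there is no value per library, none of these steps can be set against the spread between replicates.

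MLXIP and MLX, the MLX arm, lay close together per kb but not before division by length, where MLX was at a mean log2 CPM of 5.49. MLXIP (chromosome 12, 122078756 to 122147344) had the most reads of the 10 genes, with a mean log2 CPM of 7.42 that was above 91.5% of genes before division by length. Over its 13868 bases this came to 3.62 as log2 CPM per kb, above 71.0% of genes. MLX (chromosome 17, 42567068 to 42573239) was at 3.40, above 67.3% of genes. MLXIP was at 1.17 times the level of MLX in CPM per kb with the deposited lengths and at 1.07 times with the canonical ones. The paralogue of MLXIP, MLXIPL, had no value under its symbol and was not analysed here. Of a pair of genes known to be driven by MLXIP and MLX, TXNIP was at 5.86 as log2 CPM per kb and ARRDC4 at 0.83, which is above 93.7% and 23.5% of genes. These levels describe mRNA and not the amount of protein.

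Summed over the network in CPM per kb, MYC contributed 15.7, MAX 7.18, the 6 repressors together 17.8 and the MLX arm, of MLX and MLXIP, 22.9. The possible partners of MAX therefore came to 4.68 times the level of MAX itself. With canonical transcript lengths this was 3.12 times, and the repressors together were at 2.59 times the level of MYC in place of 1.13 times, as MXD3 then came to 31.6 CPM per kb in place of 6.53. In both cases the summed mRNA of the partners was above that of MAX. The sum joins MYC and the 6 repressors against MAX alone, so a ratio above 1 follows largely from the number of genes. Taken singly, only MYC of these partners was above MAX with the deposited lengths, and only MXD3 with the canonical ones.

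The choice of length mattered most for MXD3. Its deposited length, 5154 bases, is 4.83 times that of its canonical transcript, 1067 bases, and its level went from 2.71 to 4.98, so that it moved from the fifth place in the order to the first. As its CPM was the same in both cases, the higher level may include reads from outside that transcript. MXD3 also shares exon bases with PRELID1 and RAB24, as given below, and their part in its level was not tested. MXD4, MGA, MXI1, MNT and MXD1 kept the last 5 places, in the same order, with both lengths. For MXD1 the 2 lengths are 6351 and 5549 bases, and it was above 4.27% of genes with the canonical one.

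**Figure D3:**
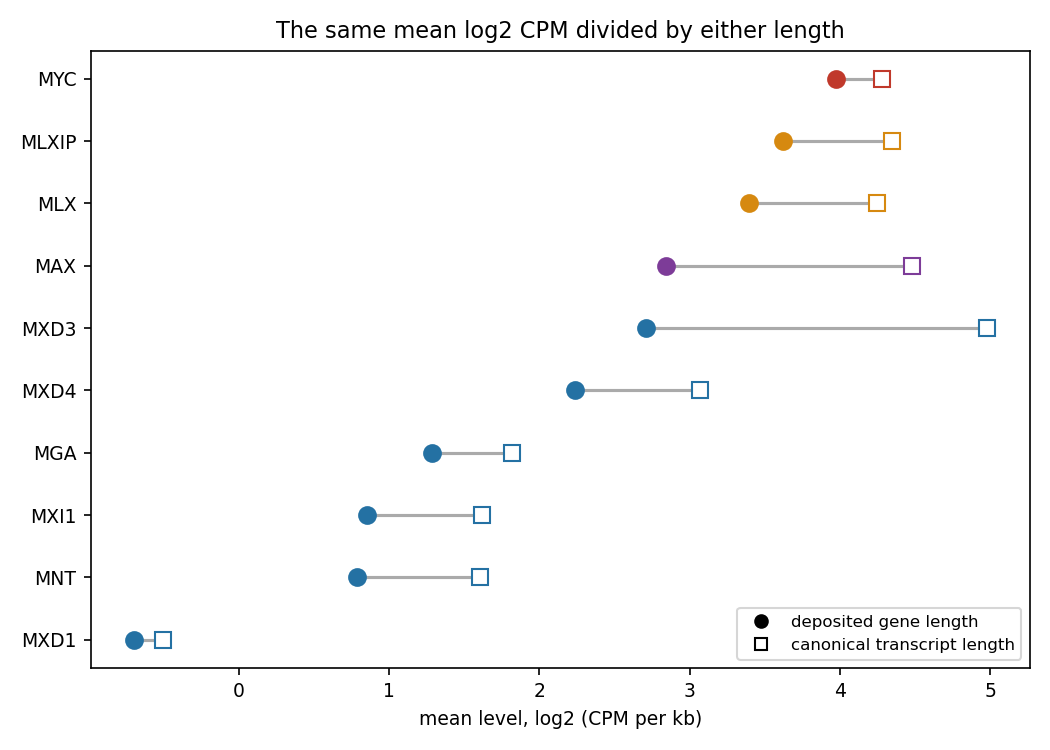
Level of each member as log2 CPM per kb with the deposited gene length (filled circles) and with the length of the canonical GENCODE transcript (open squares), from the same mean log2 CPM. The distance is largest for MXD3, from 2.71 to 4.98, and smallest for MXD1, from -0.70 to -0.51.

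In the GENCODE annotation 9 of the 10 members share exon bases with another gene, and their reads depend on how the counting treated such bases. For 4 members the other gene has a value in the table, and these are given first. MXD3 shares 1148 exon bases with PRELID1 on the opposite strand, 24.2% of its exon length, and PRELID1 had a mean log2 CPM of 6.50 against 5.07 for MXD3. It also shares 926 bases (19.5%) with RAB24 on the same strand, at a mean log2 CPM of 2.70. MLX shares 775 bases (18.2%) with PSMC3IP, and MAX 822 bases (13.1%) with FNTB, both on the opposite strand and both with fewer reads than the member, at 4.14 and 3.39. MXD1, at 1.97, shares 237 bases (3.73%) with SNRNP27, which lies on the same strand and was at 4.20. Of the overlaps with genes that have no value, that of MNT with a long noncoding RNA on the opposite strand was the longest, at 1065 bases (12.2%). The libraries were stranded, but whether the counting used strand is not given in the sources used here, and the part of these genes in the levels of the members was not tested.

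Genes that act with the network were described from 8 lists of 117 genes, of which 112 had a value. Of the SIN3 corepressor genes, through which the MXD proteins repress, 13 of 18 were above the median of all genes, and the list had a median of 3.36 as log2 CPM per kb. The deacetylase HDAC1 (5.68) and the histone-binding protein RBBP7 (5.62) were its highest genes, and ARID4A (0.75) and ING1 (0.33) its lowest. In the MGA and E2F6 complex, 6 of 11 genes were above the median, and the median of the list was 2.44. The E2F partner TFDP1 (5.85) and the heterochromatin protein CBX3 (5.69) were the highest, whereas E2F6 itself (0.85) and YAF2 (-0.42) were the lowest, both below MGA.

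Cofactors that MYC recruits had a median of 3.02, with 12 of 18 above the median of all genes. The ATPase RUVBL2 (6.33) and WDR5 (5.42), which helps to place MYC on chromatin, were the highest, and the acetyltransferase CREBBP (1.83) and the cyclin CCNT1 (1.76) the lowest. Before division by length CREBBP and CCNT1 were above the median of all genes, 4.58, at a log2 CPM of 5.78 and 4.64. By that measure 17 of the 18 cofactors were above it. Genes for the turnover of MYC protein had a median of 3.43, with 14 of 21 above that of all genes. AURKA (6.15), a kinase that stabilises MYC family proteins, and the phosphatase subunit PPP2CA (5.40) were at the top. FBXW7 (0.27), the ubiquitin ligase subunit that marks MYC for degradation, and the deubiquitinase USP37 (0.21) were at the bottom, lower than all members except MXD1.

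Known target genes of MYC were the highest of the lists. Of 29 with a value, 27 (93.1%) were above the median of all genes, and their median was 5.83. LDHA, for lactate production, was at 7.98 and the amino acid transporter SLC7A5 at 7.82, and the lowest were the cap-binding protein EIF4E at 1.73 and the telomerase gene TERT at -0.24. The place of EIF4E depends on its deposited length of 14067 bases. Before division by length its log2 CPM, 5.55, was above the median of all genes, 4.58. Many of these genes serve ribosome production and metabolism, and the part of MYC in their level was not tested. CCND2 of this list had no value and was not analysed here. The list of other basic helix-loop-helix factors had a median of 3.00, with 9 of 14 above that of all genes. HIF1A (6.23) and the lysosomal regulator TFE3 (4.89) were the highest and BHLHE41 (0.039) and TFEB (-0.0024) the lowest, and HEY1 was not analysed here for lack of a value.

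**Figure D4:**
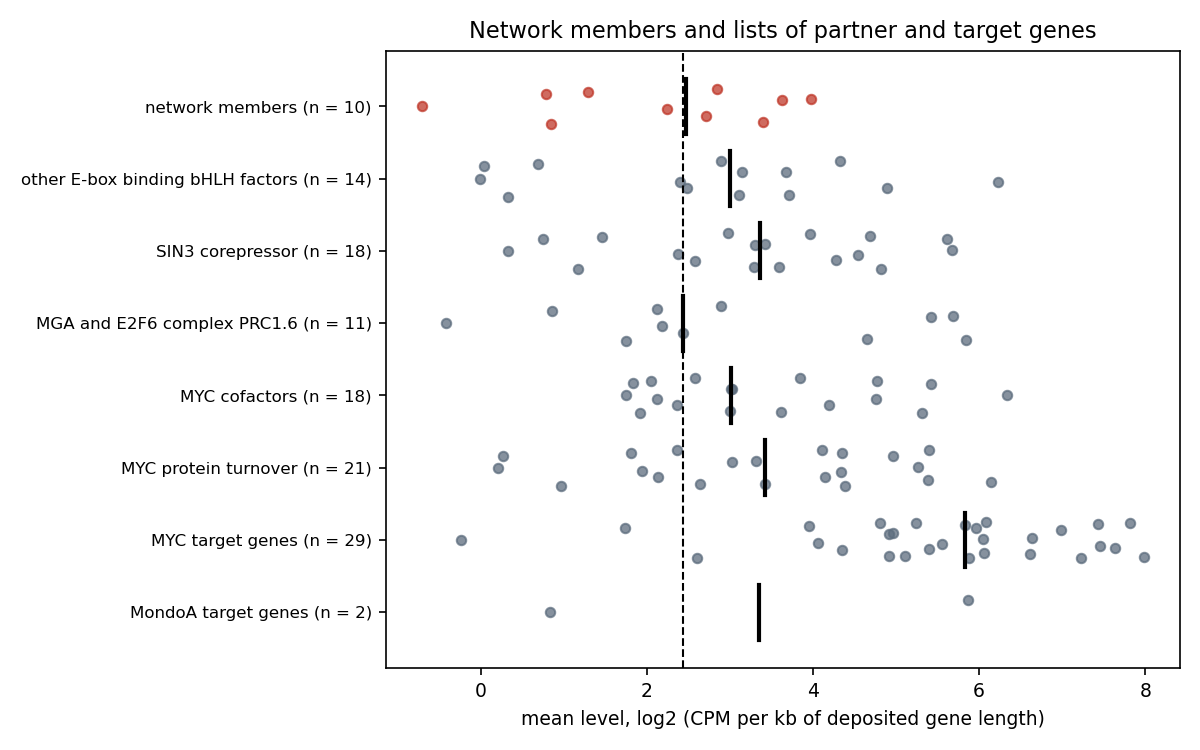
Level of each gene (points) as log2 CPM per kb in the network and in 7 lists of partner and target genes, with the median of each list as a vertical bar and that of all genes, 2.43, as a dashed line. The MYC target genes have a median of 5.83, and the 10 members have one of 2.47. The vertical spread of the points carries no value.

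The label of the cell line was checked with marker genes. All 7 genes listed as high in this line, such as VIM, CD44, AXL and the keratin KRT18, were above 91.1% or more of genes, and the oestrogen and progesterone receptor genes ESR1 and PGR gave no value. The other genes listed as low were measured, and of these ERBB2 was above 62.6% of genes and so not low by this scale, EPCAM was near the median, above 49.3%, and CDH1 was above 26.9%. Of 10 markers of immune, endothelial, red blood and fibroblast cells, 2 had a value, COL1A1 and PDGFRB, at or under percentile 18.5. Mean log2 CPM over the whole table ranged from 0.56 to 13.43, and the depth of each library is unknown.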

How the data were processed

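RNA of 4 samples was sequenced as stranded, ribosomal RNA-depleted 75 bp paired-end libraries. According to the paper's methods the reads were mapped to GRCh38.p13 and counted with rsubread, while the submitters' processing notes list TopHat, HTSeq, DESeq, Cufflinks and hg38. The table the authors deposited gives a mean level per gene as log2 CPM. Its normalization, prior count and filter on low counts are not given in the sources used here. Whether the mean was taken before or after the log is not given either, and mean log2 CPM stands for the deposited value. It also holds 1 comparison of cordycepin with DMSO (log2 fold change, F, p-value, adjusted p-value), which was not used, and 0 columns per sample. Hence no test was made, and neither depth, SD nor a replicate check can be given.

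The deposited mean was divided by the deposited length in kb. That length equalled the exon union of GENCODE release 44 for 73.7% of the 13922 genes found there (6 of 10 members), and start and end agreed for 82.1% (8 members). A percentile is the percentage of genes with a lower value, among those that have a value. Genes without one, such as ESR1, are not counted. The members and lists were chosen with earlier results of these data known. All members were named, with the 2 highest and 2 lowest genes of each list, both short lists in full, and every gene without a value. Overlapping genes were those sharing exon bases with a member. Promoters came from RefSeq. The functions were tested on simulated data. Alternatives were other lengths, backgrounds, a pseudocount of 0.5 CPM and a looser motif. Protein sequences were not used here. The software was pandas 2.3.3 and numpy 2.4.6 under Python 3.11.15, with scipy 1.17.1 for intervals and matplotlib 3.10.9 for plots.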

Additional observations from a re-analysis of the deposited data

How the results depend on the processing

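No paired analysis was possible because the table holds no value per library, and for the same reason no library could be left out. Of the 10 members, 5 were above the median level per kb. This became 3 when the lowest 25% of genes by mean log2 CPM were left out of the background, with MAX at percentile 45.2 and MXD3 at 42.2, and it lay between 5 and 7 with the other settings. Without division by length MXD4 was at percentile 57.2 and MGA at 64.4, and with the canonical transcript length MXD4 was at 50.5, all above the median in place of below it. The members with a motif in the promoter rose from 3 to 7 with CANNTG, which by its construction takes in more sequences. The 6 lists of more than 2 genes with a value, and all lists together, stayed within 1.5 times their count above the median in every alternative. Without the lowest 25% of genes, however, the MYC cofactors reached that limit, with 8 of 18 genes above the median in place of 12. The MGA and E2F6 complex reached it too, with 4 of 11 in place of 6. Without division by length the counts were 17 and 7. The exon union of GENCODE as length was added after the data were seen and left 5 members above the median. The mean level limits what can be said, as it has no error and no part for each treatment.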
